A study of Mus musculus with 9 samples.

Results

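Of 9 poly(A) RNA-seq libraries made from D2.0R cells (also written D2.OR), 6 are compared here, those whose titles end in 4, 5 and 6 against those ending in 1, 2 and 3. They were matched by position, 4 with 1, 5 with 2 and 6 with 3, which gives 3 differences that share no library. D2.0R is a mouse mammary adenocarcinoma line. All 9 libraries carry the same labels: cells grown with 10% fetal bovine serum were loaded with CellTrace Far Red (CTFR), held for 1 week with 2% serum, and then divided by flow cytometry into cells that kept the dye, which the labels call quiescent, and cells that had lost it, which they call proliferative. One description, common to every sample, lists CTFR-positive, bulk and CTFR-negative material with the numbers 1 to 3 each, and no label ties a library to a fraction. If the titles followed the order of that list, libraries 1 to 3 would be dye-retaining cells and libraries 4 to 6 bulk cells. That assignment is inferred from order alone, and the pairing by position is inferred as well. Libraries are therefore named by number, no library is counted as a replicate of another, and no test or p-value is given. Whether the libraries came from separate cultures, and whether cells of 1 culture were divided between fractions, is not stated in the labels.

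CTFR binds to cell proteins and is shared out between daughter cells, so each division dims the signal and a cell that stays bright has divided little. Genes of mitosis and DNA replication are switched on as cells enter the cycle, and many late ones are held off in resting cells by the DREAM repressor complex, which binds a promoter element called the cell cycle gene homology region (CHR). Dye retention is used with dormant tumour cells to find those that have stopped dividing, a state in which secreted factors, matrix and surface proteins are often described as differing from those of cycling cells. A dividing-cell transcript measured in bulk RNA cannot tell fewer cycling cells from less of that RNA in each cell.

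The 6 libraries held between 27880290 (library 5) and 35406270 (library 3) estimated counts. Levels are in CPM, counts scaled to a common library size, after scaling for library composition, and can be compared between libraries for 1 gene but not between genes, since they are not corrected for gene length. The 12341 genes with a mean of at least 1 CPM over the 6 libraries are called measured, and they held 99.8% of the counts. Libraries 2 and 5 stood apart from the other 4. The median measured gene differed by 0.11 on the log2 scale between libraries 2 and 5, against 0.25 to 0.31 between either of them and library 1, 3, 4 or 6. The nearest library to library 1 was library 3 (0.12) and the nearest to library 4 was library 6 (0.14), with libraries 1 and 4 differing by 0.14. Libraries 3 and 6 differed by 0.11, so each was nearest to the other, as libraries 2 and 5 were. The levels in libraries 2 and 5 are described beside the results they touch.

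**Figure D1:**
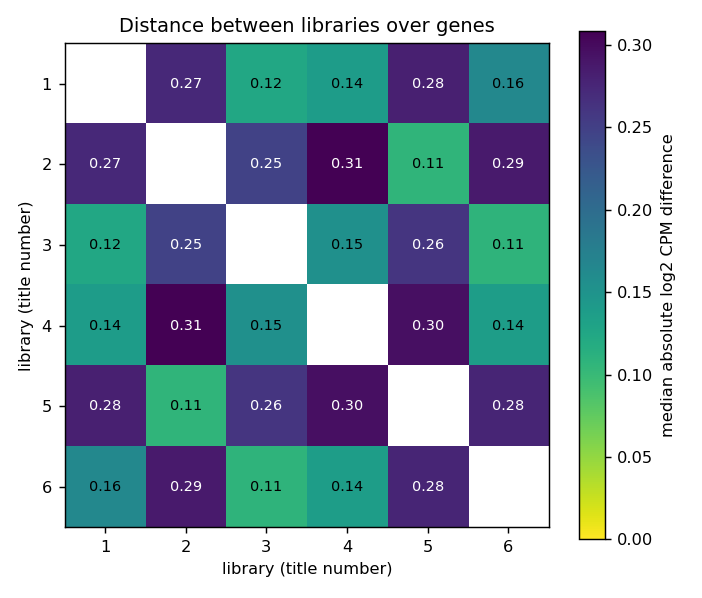
Median absolute log2 difference in CPM over 12341 measured genes between each pair of the 6 libraries, named by title number on both axes, with darker cells for larger differences. Libraries 2 and 5 lie at 0.25 to 0.31 from the other 4 and at 0.11 from each other.

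A gene is called higher (or lower) in libraries 4 to 6 when all 3 position pairs differed in the same direction by at least 1.5-fold. Of the measured genes, 49 (0.397%) were called higher and 76 (0.616%) lower. Differences of any size lay in the same direction in all 3 pairs for far more genes, 3167 higher (25.7%) and 3091 lower (25.0%). Ignoring the pairs, 444 genes (3.60%) stood higher in every one of libraries 4 to 6 than in any of libraries 1 to 3, and 635 genes (5.15%) stood lower. The groups did not overlap for 15 of the 49 genes called higher and 53 of the 76 called lower. For the other 34 genes called higher and 23 called lower the ranges of the groups overlapped, so these calls rest on the pairing by position. Across genes, Pearson's r between the differences was 0.38 for 5 minus 2 with 4 minus 1, 0.44 for 6 minus 3 with 4 minus 1 and 0.43 for 6 minus 3 with 5 minus 2, given as a description since genes are not independent. Of 1370 genes that differed by 1.5-fold in at least 1 pair, 49 differed as much in the opposite direction in another pair.

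**Figure D2:**
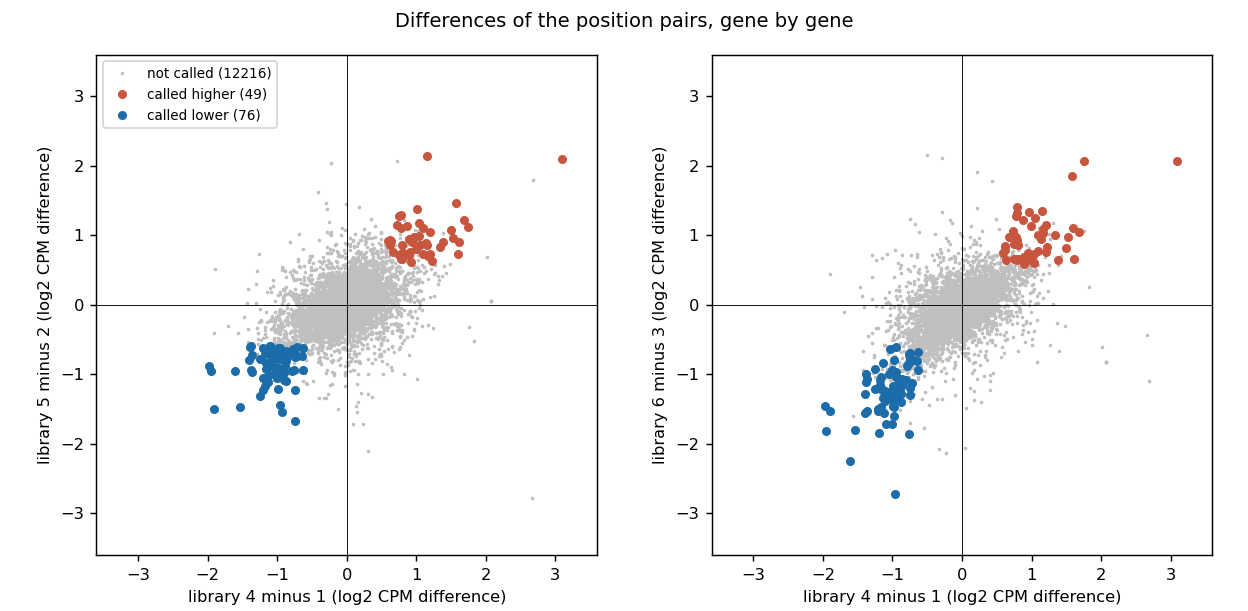
Log2 difference in CPM of each of 12341 measured genes in one position pair (horizontal axis) against another (vertical axis), with genes called higher and lower in colour. The coloured points lie beyond 1.5-fold on both axes in every panel, and r across genes is 0.38 to 0.44.

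Genes of mitosis made up the largest named group among those called higher. Of 38 G2/M and mitosis genes measured, 32 were higher in libraries 4 to 6 in all 3 pairs and 0 were lower in all 3, and 11 of the 38 passed 1.5-fold. The median member was 0.49 higher on the log2 scale in library 4 than in library 1, 0.74 higher in 5 than in 2 and 0.39 higher in 6 than in 3, where the median over all measured genes lay between -0.0034 and 0.014. These counts stand against 25.7% of all measured genes higher at any size and 0.397% called. All 38 members overlapped between the groups when the pairing was ignored.

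Mki67, which encodes the Ki-67 protein used to mark cycling cells, stood at 5.57, 63.4 and 4.97 CPM in libraries 1, 2 and 3 and at 9.76, 107 and 9.12 CPM in libraries 4, 5 and 6. Library 2 therefore lay far above libraries 4 and 6, and within each pair the higher number was higher. The ratios were 1.75-fold (1.44 to 2.13), 1.68-fold (1.59 to 1.78) and 1.83-fold (1.52 to 2.22), where the exact 95% intervals here and below cover counting error only. Libraries 7, 8 and 9, which share no library with these pairs and are set beside them without a comparison, held 28.6, 153 and 23.5 CPM. Ccnb2, the mitotic cyclin B2, stood at 0.825, 7.28 and 0.480 CPM against 2.50, 14.2 and 1.00 CPM, in the order of libraries 1, 2 and 3 against 4, 5 and 6 that is used from here on. Its ratios of 3.03-fold (1.89 to 5.01), 1.95-fold (1.66 to 2.29) and 2.09-fold (1.13 to 4.0) were larger than those of Mki67 and less precise, as library 3 held 17 counts. Plk1, a kinase that drives mitotic entry and spindle assembly, stood at 1.58, 10.9 and 1.27 CPM against 3.61, 19.9 and 2.67 CPM, ratios of 2.29-fold (1.61 to 3.30), 1.83-fold (1.60 to 2.09) and 2.11-fold (1.45 to 3.09).

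The promoters of 3 of these genes are shown because the called division genes can be read against the elements that DREAM and the factor NF-Y are known to use. They run from 250 bases before to 50 after the RefSeq start on GRCm38.p6 and are given in the sense of the gene, in lower case with matches to the CHR core TTTGAA and to CCAAT, searched on both strands, in capitals. Ccnb2 lies at chr9:70421505-70421804 on the minus strand, with 2 CHR and 3 CCAAT matches. Plk1 lies at chr7:122159185-122159484 on the plus strand, with 1 of each. Rrm2, described below, lies at chr12:24708004-24708303 on the plus strand, with 1 CCAAT and 0 CHR matches in this window.
Ccnb2: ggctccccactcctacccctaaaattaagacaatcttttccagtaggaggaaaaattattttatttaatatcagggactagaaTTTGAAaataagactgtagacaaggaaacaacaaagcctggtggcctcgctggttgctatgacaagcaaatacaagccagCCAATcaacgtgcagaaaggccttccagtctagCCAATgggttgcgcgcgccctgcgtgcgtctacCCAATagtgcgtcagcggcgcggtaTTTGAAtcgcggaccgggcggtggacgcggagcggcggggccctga
Plk1: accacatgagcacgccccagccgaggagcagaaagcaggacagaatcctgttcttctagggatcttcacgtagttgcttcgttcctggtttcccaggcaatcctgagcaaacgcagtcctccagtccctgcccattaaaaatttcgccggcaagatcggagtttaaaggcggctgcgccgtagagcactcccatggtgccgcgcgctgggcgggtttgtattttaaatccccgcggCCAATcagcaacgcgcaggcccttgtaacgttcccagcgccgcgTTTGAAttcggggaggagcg
Rrm2: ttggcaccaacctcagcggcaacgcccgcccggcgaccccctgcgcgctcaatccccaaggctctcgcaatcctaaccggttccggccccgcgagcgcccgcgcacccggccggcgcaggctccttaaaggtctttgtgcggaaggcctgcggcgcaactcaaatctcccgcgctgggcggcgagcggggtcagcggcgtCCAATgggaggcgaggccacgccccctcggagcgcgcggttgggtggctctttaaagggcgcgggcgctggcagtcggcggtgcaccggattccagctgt
RefSeq promoters were found for 32 of the 38 list genes by symbol, in 34 windows, of which 26 (76.5%) held the CHR core and 27 (79.4%) CCAAT. Among the windows of all measured genes that matched, 11.9% held the CHR core and 38.0% CCAAT, and among all 32851 RefSeq windows the shares were 17.9% and 37.4%. For genes called higher the shares were 32.5% and 52.5% of 40 windows, and for genes called lower 17.9% and 33.9% of 56 windows. A match is a run of letters and not a shown binding site, and genes of the list were known as division genes when it was drawn up.

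Kinetochore and spindle genes were among the called members. Cenpf, a kinetochore protein gene, stood at 1.13, 19.6 and 1.19 CPM against 3.55, 32.6 and 2.61 CPM, with the ratio largest in the first pair (3.13-fold, 2.10 to 4.77). Ccnb1, encoding cyclin B1, stood at 2.3, 8.88 and 1.98 CPM against 3.91, 14.6 and 3.16 CPM, which made it one of the smaller called differences (0.75, 0.71 and 0.66 on the log2 scale). The other called members, named to complete the count, were Bub1b, Aurkb, Dlgap5, Kif2c, Nuf2 and Cdc25c, which act in the spindle checkpoint, chromosome segregation and mitotic entry. Some of these did not have a counting interval clear of a ratio of 1 in every pair. Outside the list, Ncapg, a condensin subunit that compacts mitotic chromosomes, stood at 3.13, 13.8 and 3.05 CPM against 6.11, 26.9 and 5.10 CPM. The genes Cep55, Espl1, Esco2, Kif18b, Pbk, Pimreg, Pclaf, Shcbp1, Troap and Gtse1, also linked to division and singled out after their values were seen, were called higher as well.

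Not all mitotic genes passed 1.5-fold in every pair. Top2a, the topoisomerase that untangles replicated DNA, differed by 0.54, 0.55 and 0.21 on the log2 scale in the pairs 4 minus 1, 5 minus 2 and 6 minus 3. Hmmr, a spindle protein gene, differed by 0.43, 0.77 and 1.78, so that only its first pair fell short of 1.5-fold. Cdk1, the kinase partner of cyclin B, had no common direction (-0.17, 0.39 and -0.11), and neither did Anln (-0.28, 0.31 and -0.25), which acts in the contractile ring. Both were picked out after their values were seen.

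**Figure D3:**
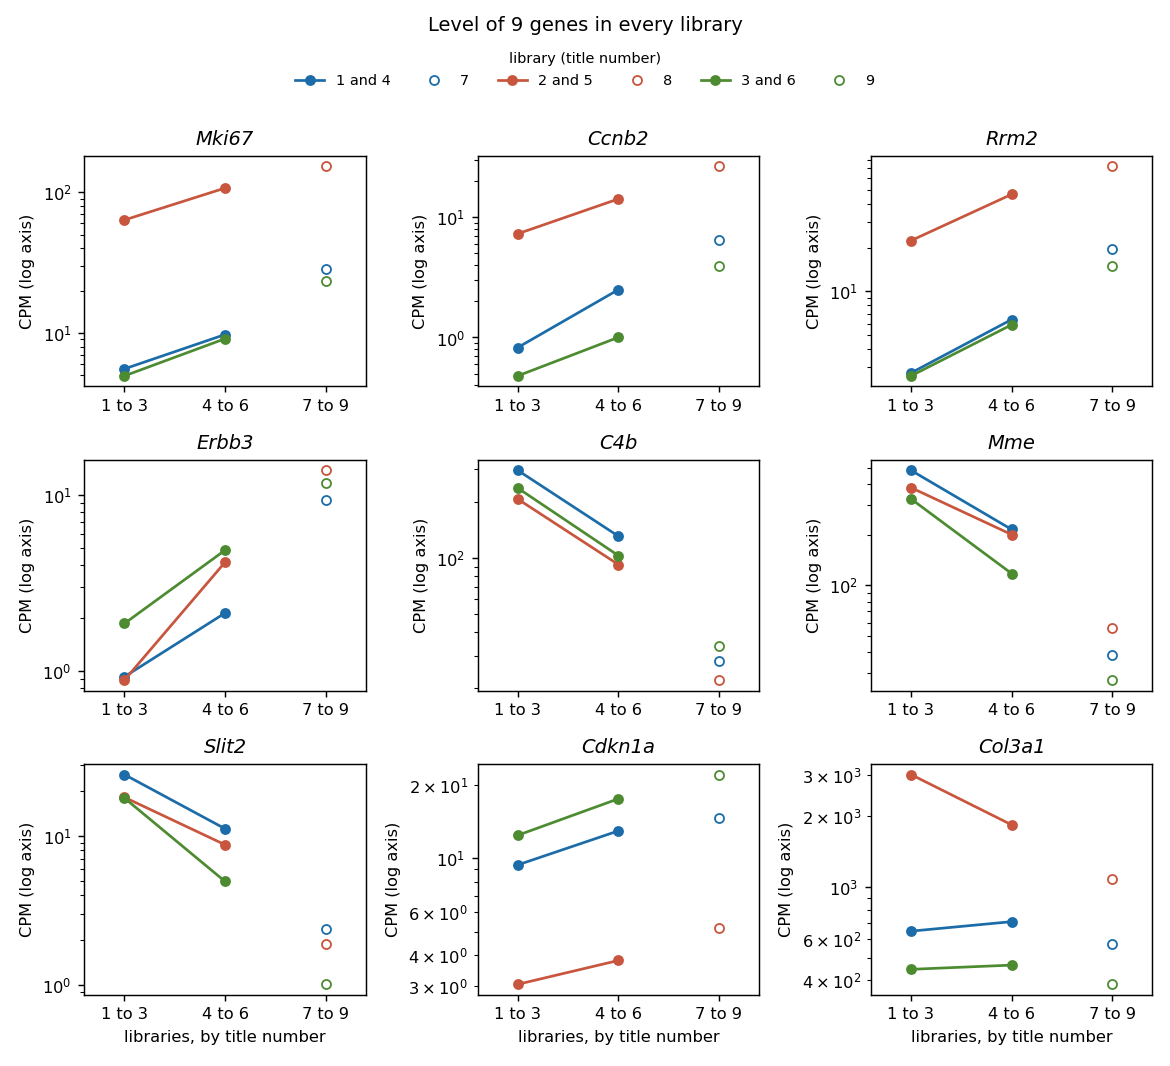
CPM on a log axis of 9 genes in all 9 libraries, with lines joining position pairs and libraries 7 to 9 as open symbols. In Mki67, Ccnb2 and Rrm2 the pair 2 and 5 lies above the others and all lines slope up, while in C4b, Mme and Slit2 libraries 4 to 6 all lie below libraries 1 to 3.

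DNA replication genes had smaller median differences than mitotic genes, and 1 of them was called. Of 42 measured members of the replication list, 23 were higher in all 3 pairs at any size and 1 was lower. Over all measured genes, 25.7% were higher and 25.0% lower at any size, and 0.397% were called higher. The medians were 0.11, 0.43 and 0.09 on the log2 scale for 4 minus 1, 5 minus 2 and 6 minus 3, so the largest median was that between libraries 5 and 2. The called member was Rrm2, the regulated subunit of ribonucleotide reductase that makes deoxynucleotides, at 2.75, 22.3 and 2.63 CPM in libraries 1, 2 and 3 and at 6.41, 46.5 and 5.89 CPM in libraries 4, 5 and 6. Its ratios of 2.33-fold (1.79 to 3.06), 2.08-fold (1.90 to 2.28) and 2.25-fold (1.74 to 2.91) were alike in the 3 pairs, and library 2 again lay above libraries 4 and 6. Subunits of the replicative helicase did not pass, with Mcm2 at 0.26, 0.46 and 0.25 and Mcm5 at 0.37, 0.66 and 0.33 on the log2 scale. Pcna, the sliding clamp of the replication fork, differed by 0.16, 0.29 and 0.11.

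Among 19 measured regulators of the RB, E2F, FOXM1 and B-MYB families, which turn these programmes on or off, 1 was called higher. It was E2f8, an atypical E2F that represses E2F targets late in S phase, at 0.688, 5.84 and 0.677 CPM against 1.54, 9.70 and 1.43 CPM. Over all measured genes, 0.397% were called higher and 0.616% lower. Foxm1, the activator of mitotic genes, differed by 0.63, 0.82 and 0.34 on the log2 scale, and Mybl2, its B-MYB partner, by -0.22, 1.04 and -0.0031, both picked out after their values were seen. The G1 cyclins and their kinases, which act before replication starts, had 0 called of 10 measured. Ccnd1 differed by 0.11, 0.25 and 0.02 and Ccne1 by -0.06, 0.34 and 0.25.

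In the list of CDK inhibitors and arrest genes 0 of 24 measured were called, a count near the background of 0.397% higher and 0.616% lower. Cdkn1a, encoding p21, stood at 9.39, 3.04 and 12.4 CPM against 12.9, 3.80 and 17.5 CPM. It was thus higher in all 3 pairs, by 0.46, 0.32 and 0.50 on the log2 scale, and lowest in libraries 2 and 5. Cdkn1b, encoding p27, differed by -0.12, -0.09 and -0.01. Over the list 4 genes were higher in all pairs and 13 lower, beside 25.7% and 25.0% of all measured genes, with medians of -0.04, -0.04 and -0.06. Gas1, a growth arrest gene, stood at 751, 794 and 585 CPM against 475, 579.8 and 340.0 CPM, lower in libraries 4 to 6 without overlap but short of 1.5-fold in the second pair. Gas6, the ligand of the receptor Axl, had the same form at 83.1, 57.3 and 44.7 CPM against 41.2, 39.2 and 21.2 CPM and was picked out after its values were seen. Of 25 measured p53 targets 0 were called, with 7 higher and 5 lower in all 3 pairs at any size.

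Complement genes, whose proteins tag cells and microbes for clearance, were among the genes called lower. C4b, complement component 4B (chromosome 17, 34728380 to 34743882 on GRCm38, protein-coding), stood at 295, 207 and 238 CPM in libraries 1, 2 and 3 and at 131, 92.3 and 103 CPM in libraries 4, 5 and 6. Every value in libraries 4 to 6 lay below every value in libraries 1 to 3, libraries 2 and 5 included. Library 1 was 2.25-fold (2.17 to 2.34) above library 4, library 2 was 2.24-fold (2.15 to 2.35) above library 5 and library 3 was 2.3-fold (2.21 to 2.40) above library 6. Libraries 7, 8 and 9 held 28.0, 22.2 and 33.7 CPM. C4a, a near-identical copy, stood at 22.5, 16.8 and 20.0 CPM against 11.5, 8.24 and 8.33 CPM, and since estimated counts split shared reads between the copies, C4a and C4b are not separate evidence. Tnxb, a matrix glycoprotein gene beside them on chromosome 17 at 34670535 to 34719815, stood at 71.1, 30.0 and 49.1 CPM against 27.5, 15.4 and 23.4 CPM, also without overlap.

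A list of 28 complement genes was drawn up after C4b had been seen, so its counts only describe, and the genes named from it were chosen in the same way. Of 12 measured members, 6 were called lower, 0 higher, and 10 were lower in all 3 pairs, with medians of -0.75, -0.50 and -0.78 on the log2 scale. Over all measured genes, 0.616% were called lower and 25.0% were lower in all 3 pairs. The 6 include C4a with C4b and C1s1 with C1s2, near copies that are not separate members in effect. C3, the central component of the cascade, stood at 235, 174 and 308 CPM against 109, 115 and 123 CPM. C1s1, a protease of the first complement complex, stood at 209.5, 217 and 195 CPM against 108, 136 and 95.4 CPM, and its near copy C1s2 at 9.83, 10.5 and 9.29 CPM against 4.73, 6.42 and 4.65 CPM. Cfd, factor D of the alternative pathway, stood at 6.40, 6.90 and 9.23 CPM against 3.22, 3.63 and 5.32 CPM. None of these 4 overlapped between the groups. The same held for 53 of the 76 genes called lower, and 5.15% of all measured genes stood lower without overlap. These 4 were named as called genes, so the lack of overlap adds little to their calls. C1ra, the protease that activates C1s, differed less, by -0.41, -0.37 and -0.46, and Masp1, a protease of the lectin pathway, by -0.04, -0.15 and -0.12. The genes of the recognition subunits C1qa, C1qb and C1qc were at or near 0 in all 6 libraries, with 1 count in library 5 for C1qa.

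Several other genes called lower encode surface or secreted enzymes, a grouping by known function made after their values were seen. Mme, encoding the cell-surface peptidase neprilysin (chromosome 3, 63241537 to 63386030), stood at 483, 381 and 327 CPM in libraries 1, 2 and 3 and at 215, 201 and 118 CPM in libraries 4, 5 and 6. The groups did not overlap, and library 1 was 2.25-fold (2.18 to 2.31) above library 4, library 2 1.90-fold (1.84 to 1.96) above library 5 and library 3 2.78-fold (2.68 to 2.88) above library 6. Libraries 7, 8 and 9 held 38.7, 55.9 and 27.4 CPM. Enpp2, encoding autotaxin, which makes lysophosphatidic acid, stood at 187, 111 and 119 CPM against 100.1, 52.5 and 50.4 CPM, without overlap. Acp5, tartrate-resistant acid phosphatase, stood at 52.99, 32.8 and 31.6 CPM against 26.3, 17.7 and 12.3 CPM, and its groups did not overlap either. Sod3, extracellular superoxide dismutase, stood at 16.1, 22.0 and 10.1 CPM against 8.48, 11.5 and 4.80 CPM, with library 5 inside the range of libraries 1 to 3. Mmp3, the matrix protease stromelysin 1, stood at 186, 170.2 and 182 CPM against 90.8, 105 and 76.8 CPM. It was the only called gene of 18 measured in the list of matrix proteases and their inhibitors, beside 0.616% of all measured genes called lower.

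Genes of a guidance cue, a membrane protein and a splicing protein were also among those called lower. Slit2, a secreted guidance cue, stood at 25.8, 18.1 and 17.9 CPM in libraries 1, 2 and 3 and at 11.2, 8.72 and 4.95 CPM in libraries 4, 5 and 6, without overlap and with the widest difference in the third pair (library 3 3.62-fold (3.04 to 4.33) above library 6). Libraries 7, 8 and 9 held 2.39, 1.87 and 1.01 CPM. Plxdc2, a plexin-domain membrane protein gene, stood at 36.7, 43.3 and 29.3 CPM against 18.3, 22.8 and 11.3 CPM, without overlap. Snrpn, a splicing protein gene that shares its transcript with Snurf, stood at 12.7, 8.77 and 7.76 CPM against 5.75, 4.01 and 3.04 CPM, and its reads cannot be told from those of Snurf here.

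Small leucine-rich proteoglycans, which bind collagen fibrils and growth factors, included called genes in both directions. Of 9 measured, 3 were called lower and 1 higher, against 0.616% and 0.397% of all measured genes. Ogn, osteoglycin, stood at 118, 309 and 61.4 CPM in libraries 1, 2 and 3 and at 70.0, 189 and 26.7 CPM in libraries 4, 5 and 6. Omd, osteomodulin, stood at 9.22, 70.1 and 4.26 CPM against 4.67, 35.1 and 1.37 CPM and Aspn, asporin, at 3.03, 44.1 and 0.254 CPM against 1.77, 13.9 and 0.122 CPM. All 3 were highest in library 2. Their groups overlapped because library 5 lay above libraries 1 and 3, and library 4 also lay above library 3. Aspn rested on 9 counts in library 3 and 4 in library 6. They lie side by side on chromosome 13, Aspn at 49544443 to 49567565, Omd at 49582462 to 49592822 and Ogn at 49608046 to 49624501. Fmod, fibromodulin, was called higher at 0.378, 1.75 and 0.452 CPM against 1.05, 3.18 and 0.972 CPM.

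Of 24 collagens and other matrix genes 0 were called, which is near the background too. Col1a1, the main chain of type I collagen, stood at 1086, 3549 and 2043 CPM against 2186, 4040.2 and 3056 CPM, so that its second pair differed by little (1.01, 0.19 and 0.58 on the log2 scale). Col3a1, of type III collagen, stood at 648, 3008 and 445 CPM against 711, 1837 and 464 CPM, lower in library 5 than in library 2 and near equal in the other pairs. Thbs1, thrombospondin 1, was lower in library 4 than in 1 and in library 6 than in 3, but not in library 5 against 2 (-0.72, 0.13 and -0.90), and Ccn2, a YAP target, was lower in all (-1.04, -0.36 and -1.32) without passing in the pair 5 minus 2.

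**Figure D4:**
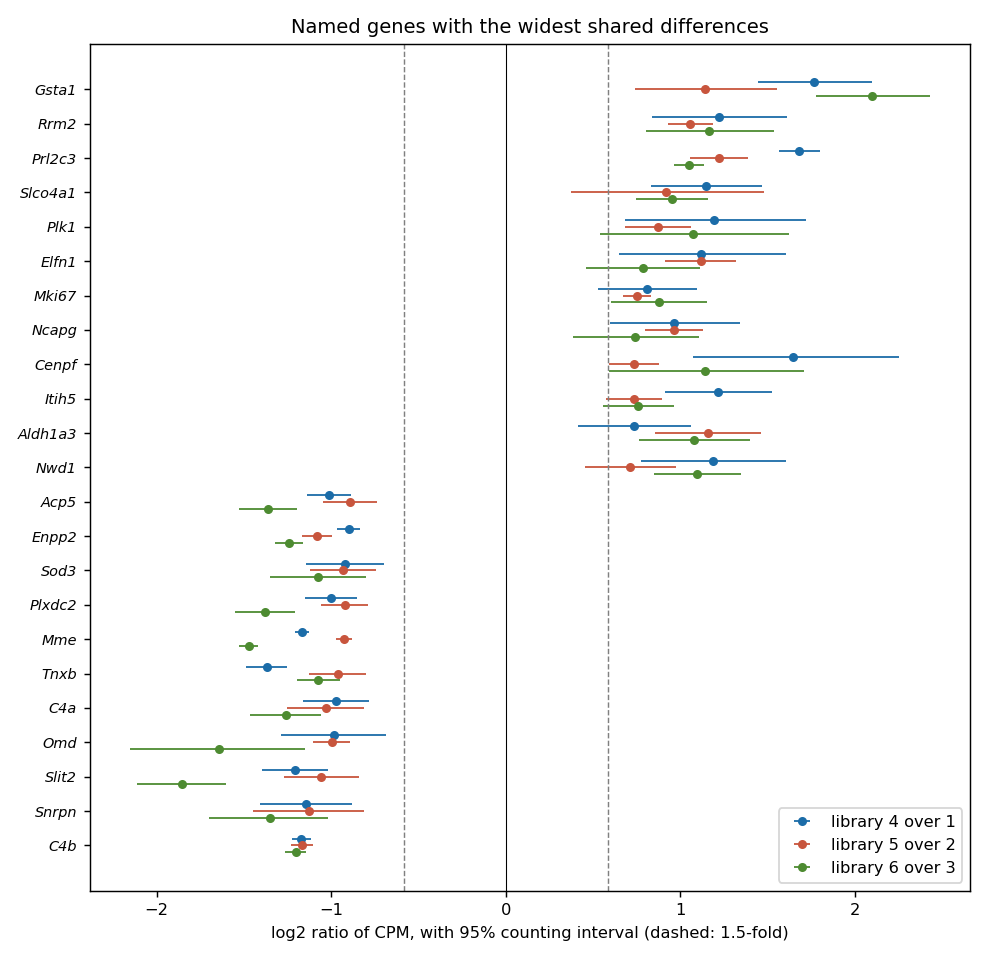
Log2 ratio of CPM, library 4 over 1, 5 over 2 and 6 over 3, for named genes with the largest shared differences (higher above, lower below), with exact 95% intervals for counting error. All points lie beyond 1.5-fold, and the 3 pairs of C4b nearly coincide while those of Slit2 are spread.

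Secreted signals and their receptors gave a few calls, beside 0.397% of all measured genes called higher and 0.616% called lower. In the WNT list 1 of 18 was called lower, Rspo3, an R-spondin that amplifies WNT signalling, at 34.5, 48.3 and 24.4 CPM against 18.8, 27.7 and 9.24 CPM. Among 24 genes of the TGF-beta and BMP response 1 was called lower, the ligand gene Bmp6, at 2.65, 1.69 and 1.78 CPM against 1.28, 1.01 and 0.881 CPM. In that list 15 genes were lower in all 3 pairs and 0 higher, where 25.0% and 25.7% of all measured genes were, with medians of -0.17, -0.10 and -0.12. Id3, a BMP target, differed by -0.32, -0.15 and -0.05. Of 17 measured cytokines and chemokines 0 were called, 9 were lower in all pairs and 1 higher. Cxcl5, a neutrophil chemokine, stood at 1425, 1220.1 and 1493 CPM against 891, 1004 and 894 CPM, lower without overlap but under 1.5-fold in the pair 5 and 2, and Spp1, osteopontin, differed by -0.44, -0.12 and -0.43.

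Among 22 growth factor receptors and ligands 1 was called, and higher, beside 0.397% of all measured genes called higher. Erbb3, the neuregulin receptor HER3, stood at 0.928, 0.888 and 1.86 CPM in libraries 1, 2 and 3 and at 2.14, 4.15 and 4.86 CPM in libraries 4, 5 and 6. All of libraries 4 to 6 lay above libraries 1 to 3, and the ratios were 2.3-fold (1.45 to 3.75), 4.68-fold (3.13 to 7.19) and 2.61-fold (1.95 to 3.53). In counts it rested on 27, 31 and 66 in libraries 1 to 3, and libraries 7, 8 and 9 held 9.38, 13.8 and 11.6 CPM. Aldh1a3, an aldehyde dehydrogenase that makes retinoic acid and is used as a stem cell-linked marker, stood at 4.40, 4.07 and 3.58 CPM against 7.33, 9.07 and 7.57 CPM, without overlap. It was the only called gene of 20 measured in the stem cell-linked list, beside the same 0.397% of all measured genes.

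Several genes called higher belong to none of the lists. Gsta1, a glutathione transferase, stood at 3.51, 2.29 and 2.77 CPM against 11.9, 5.06 and 11.9 CPM, without overlap, and its near copies share reads. Prl2c3, a proliferin, stood at 25.8, 13.1 and 45.9 CPM against 82.8, 30.6 and 94.9 CPM, higher in each pair by 1.68, 1.22 and 1.05 on the log2 scale. Its close relative Prl2c2, which shares reads with it, was called too. Slco4a1, an organic anion transporter, stood at 4.09, 1.35 and 8.64 CPM against 9.07, 2.55 and 16.7 CPM, and was lowest in libraries 2 and 5, the reverse of the mitotic genes. Itih5, an inter-alpha-trypsin inhibitor chain, stood at 4.40, 15.8 and 9.40 CPM against 10.2, 26.3 and 15.9 CPM. Elfn1, a membrane protein gene, stood at 1.89, 8.85 and 3.61 CPM against 4.11, 19.2 and 6.23 CPM, and Nwd1, of a WD-repeat family, at 2.44, 6.10 and 5.67 CPM against 5.55, 10.0 and 12.1 CPM.

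Among genes called higher, the smallest of the 3 differences was largest in Hepacam2, an immunoglobulin-family adhesion gene whose mean level is under the 5 CPM used to choose named genes and which was picked out after its values were seen. It stood at 0.206, 0.802 and 1.24 CPM against 2.23, 3.63 and 5.44 CPM, with 6 counts in library 1. Among genes called lower the same held for Tll1, a tolloid-like protease gene chosen in the same way, which stood at 2.51, 3.58 and 1.61 CPM against 0.624, 1.22 and 0.517 CPM.

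Most measured genes of glycolysis and of cholesterol and fatty acid synthesis were higher in libraries 4 to 6 in all 3 pairs, by small amounts. Of 28 measured genes of glycolysis and hypoxia, 26 were higher in libraries 4 to 6 in all 3 pairs and 1 was lower. Over all measured genes the shares were 25.7% and 25.0%. The medians of the 28 were 0.37, 0.28 and 0.27 on the log2 scale, and 0 passed 1.5-fold. With 0.397% of all measured genes called higher and 0.616% lower, 0 called is near the background for lists of this size, here and below. Of the 28, 7 stood higher without overlap, beside 3.60% of all measured genes. Aldoa and Pkm, which encode glycolytic enzymes, stood at 896, 748 and 873 CPM against 1162, 819 and 1080.3 CPM and at 2797, 2124 and 2447 CPM against 3174, 2524 and 2717 CPM. Gapdh stood at 588, 558 and 543 CPM against 832, 740.1 and 689.7 CPM, and the lactate exporter gene Slc16a3 at 36.7, 31.3 and 27.1 CPM against 56.9, 45.2 and 46.3 CPM, a pair picked out after their values were seen. Adm, adrenomedullin, named to complete the count, was the gene lower in all pairs (-0.57, -0.38 and -0.57). Of 23 measured genes of cholesterol synthesis, 21 were higher in all pairs and 0 lower, with medians of 0.32, 0.25 and 0.20 and 0 called. Fatty acid synthesis had 12 of 14 higher and 1 lower, with medians of 0.24, 0.13 and 0.17. Ribosome biogenesis had 23 of 30 higher and 0 lower, with medians of 0.15, 0.10 and 0.09.

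**Figure D5:**
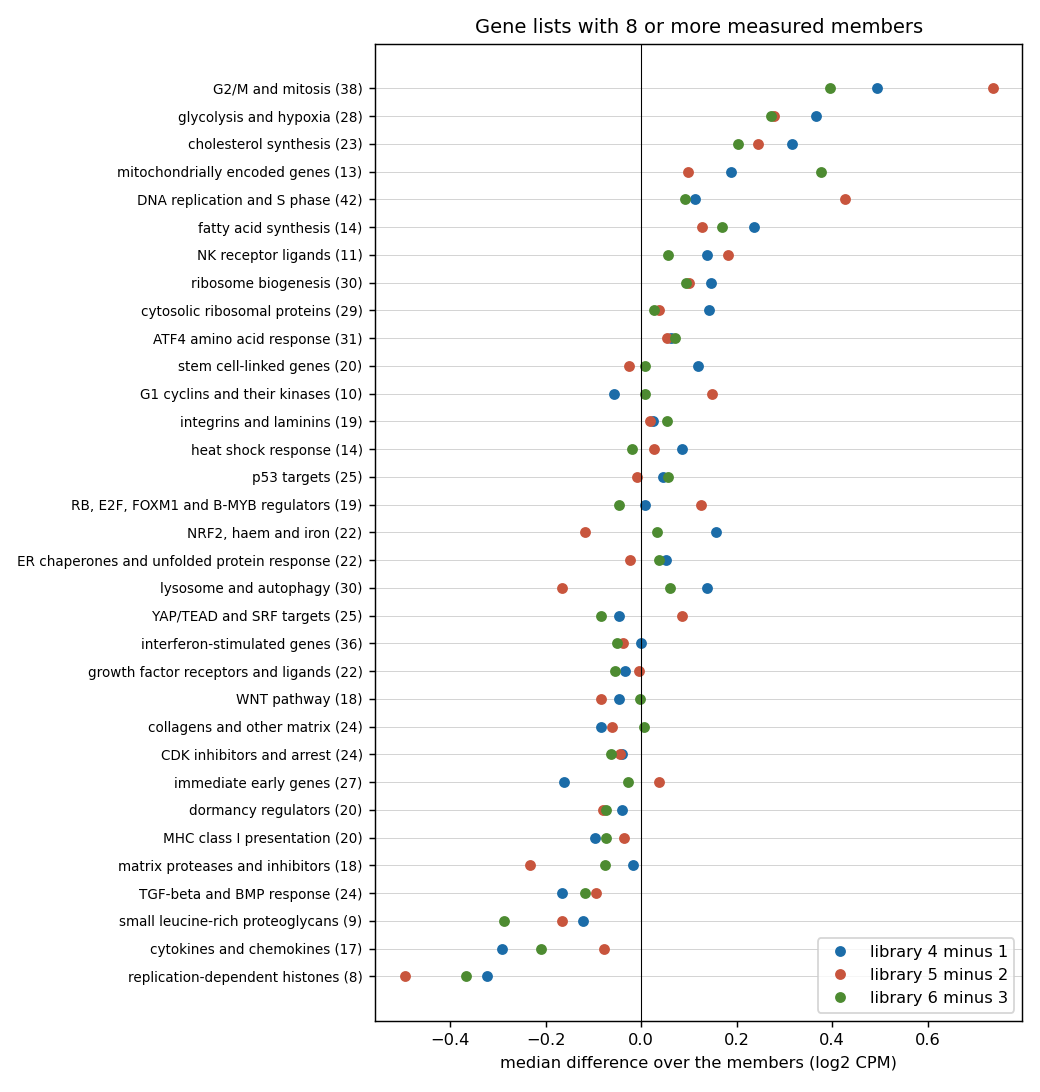
Median log2 difference of the measured members of each gene list in the 3 position pairs, with the number of measured members in brackets, for lists with at least 8 of them. G2/M genes lie furthest to the right (0.39 to 0.74), and glycolysis, cholesterol and fatty acid synthesis lie between 0.13 and 0.37.

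In the stress lists 0 genes were called, which at 0.397% and 0.616% of all measured genes called is near the background for lists of this size and no result about them. At any size, 25.7% of all measured genes were higher and 25.0% lower in all 3 pairs. Of 31 ATF4 targets of the amino acid response, 13 were higher and 4 lower in all pairs. Trib3 differed by 0.31, -0.04 and 0.23 and Ddit3 by 0.35, -0.21 and 0.11 on the log2 scale. Gdf15, a stress-secreted factor, differed by 0.95, 0.41 and 0.46. The NRF2, haem and iron list had 5 higher and 5 lower of 22, with Hmox1, haem oxygenase, at -0.20, -0.20 and -0.08 and Slc7a11, the cystine importer, at -0.33, -0.34 and -0.23. The ER chaperone, heat shock, immediate early, YAP and SRF, and lysosome lists had 0 called of 22, 14, 27, 25 and 30 measured.

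The lists of immune recognition genes held 0 called genes as well, again near the background for calls. Their counts at any size stand beside 25.7% of all measured genes higher and 25.0% lower in all 3 pairs. Of 36 interferon-stimulated genes 4 were higher and 10 lower in all pairs, with Mx1, an antiviral GTPase, at 0.04, -0.13 and 0.16. MHC class I presentation had 2 higher and 10 lower of 20, and B2m, the shared light chain, stood at 1301, 1329 and 1559 CPM against 1349, 1098 and 1468 CPM. Ligands of NK cell receptors had 5 higher and 3 lower of 11, and Ulbp1, a ligand of NKG2D, differed by -0.33, 0.20 and -0.63, with no common direction. Dormancy regulators had 0 called of 20, with 1 higher and 7 lower in all pairs.

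Histone genes tied to replication, whose transcripts mostly end without a poly(A) tail, were mostly lower in libraries 4 to 6 in these poly(A) libraries. Of 8 measured, 0 were higher and 6 lower in all 3 pairs, beside 25.7% and 25.0% of all measured genes, with medians of -0.32, -0.50 and -0.37, and H4c8 was called lower at 1.93, 1.66 and 1.86 CPM against 1.12, 0.838 and 1.12 CPM. H4c9, outside the list and picked out after its values were seen, was called lower at 7.67, 4.93 and 9.37 CPM against 4.44, 2.51 and 5.17 CPM. The H4 genes encode the same protein and are close in sequence, so their shares of the reads are uncertain. Whether RNA quality had a part in this was not tested.

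Of the 37 lists, 10 held a called member and 27 none. Of the 49 genes called higher 16 were on a list, 11 of them mitotic, and 33 on none. Of the 76 called lower 7 were on a list and 69 on none, which counts the complement genes as on none.

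Markers of leukocytes, NK cells and endothelial cells were low. Of 11 leukocyte and NK cell markers 5 were at 0 in all 6 libraries, namely Ncr1, Klrk1, Klrd1, Nkg7 and Gzma, and 1, Cd68, reached 1 CPM. Their summed level ran from 4.81 to 8.36 CPM in libraries 1 to 3 and from 2.90 to 9.07 CPM in libraries 4 to 6. Endothelial markers had 1 of 5 above 1 CPM, Vwf, at 1.75, 1.12 and 2.48 CPM against 3.68, 1.43 and 4.16 CPM. Of 13 epithelial markers 4 reached 1 CPM. Krt8 was higher in all 3 pairs, at 179.6, 309.9 and 146 CPM against 201, 414 and 162 CPM. Krt18 was lower in all 3 pairs, at 154, 92.0 and 92.6 CPM against 110, 88.7 and 58.1 CPM. Epcam, Krt5, Krt14, Cldn3, Cldn4 and Cldn7 stayed under 1 CPM. Some mesenchymal genes were expressed, with 4 of 9 fibroblast markers above 1 CPM, namely Pdgfra, Pdgfrb, Col1a1 and Col3a1. The others, Dcn, Lum, Thy1, Pdpn and Dpt, stayed under 1 CPM. The summed level of the 9 fibroblast markers ran from 2658 to 7959 CPM in libraries 1 to 3 and from 3580 to 7007 CPM in libraries 4 to 6. The mitochondrially encoded share of counts was 1.91%, 1.45% and 1.31% in libraries 1, 2 and 3 and 2.05%, 1.64% and 1.61% in libraries 4, 5 and 6, higher in each pair. Genes called higher were selected for that same direction, so the likeness shows no link to them. The part of this share in the results was not tested.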

How the data were processed

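The authors deposited 1 table of expected counts per gene (estimated counts in whole numbers, without normalisation) that has 55492 rows and 9 library columns. Per the submitters' processing notes, the tools included RSEM 1.3.3, STAR 2.7.8a and cutadapt 2.3, and the build was GRCm38. Neither annotation release nor use of strand was given in the sources used here, so overlapping antisense genes cannot be told apart, and reads shared by near-identical genes were divided by estimate. Of the rows, 5 reporter or Cre sequences hold 0 counts and were left out. GENCODE release M21 holds 55227 of the 55487 gene IDs and gave the coordinates.

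CPM were computed with TMM factors over the 9 libraries (edgeR 4.0.16, R 4.3.3), and log2 differences with a prior count of 2, which understates differences of low genes. A gene was measured at a mean of at least 1 CPM in libraries 1 to 6 and called at 1.5-fold in all 3 pairs. Intervals are exact 95% conditional binomial intervals of a ratio. A count of 3, the floor, is 0.0847 to 0.105 CPM, and PCR duplicates cannot be recognised. The labels put no library in a group, so no count model was fitted.

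Named genes are 25 fixed ones, the 12 called genes per direction with the largest smallest difference at a mean of at least 5 CPM (predicted genes left out), up to 3 called members per direction of each list, and up to 2 of the highest-level members of lists without one, some of which are left out. Of the called genes this rule takes, 1 is not reported here. Any other gene was picked with its values in view. The libraries, gene lists and fixed genes were chosen with earlier results of these data known. Of 824 listed symbols 6 were not found, and 15 were matched through a newer name. The alternatives tried were other folds, scalings, filters and prior counts, the counting intervals, ignoring the pairs, and leaving out each pair.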

Additional observations from a re-analysis of the deposited data

How the results depend on the processing

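The counts of genes called higher and lower (49 and 76) moved with the threshold, to 174 and 276 at a difference of 25% and to 6 and 9 at 2-fold. Without a filter on low counts they were 184 and 273, and with the minimum mean raised to 5 CPM they were 23 and 41. Ignoring the pairs, 2 and 16 genes kept a gap of 1.5-fold between the ranges, while 444 and 635 had ranges that did not overlap at any size. Leaving out 1 position pair gave 79 to 102 genes higher and 94 to 224 lower. All 3 omissions raised the count of genes called higher by over 1.5 times, to 79 without libraries 4 and 1, 89 without 5 and 2 and 102 without 6 and 3, since fewer pairs must then pass. The count of genes called lower moved that far only without libraries 5 and 2 (224). Other scalings, other prior counts and the counting-interval rule gave 36 to 51 higher and 65 to 80 lower. Of the 11 called G2/M and mitosis genes, 8 also passed the counting-interval rule. Leaving out 1 pair gave 11 to 16 called genes of that list, a count that could not fall below 11 because fewer pairs had to pass. Under the other scalings 32 of the 38 G2/M and mitosis members were higher in all 3 pairs. The glycolysis and hypoxia list had 25 or 26, cholesterol synthesis 21 and ribosome biogenesis 21 to 25 higher. Of 1110 counts of called list members under the alternatives, 99 moved by over 1.5 times. Most of the 1110 started from 0, as 27 of the 37 lists held no called member, so this share does not measure stability. Of 1522 smallest differences of named genes, 147 moved by more than the SD over that gene's 3 pairs. That 0 reversed a called gene says little, since a call needs all 3 differences past 1.5-fold in the same direction. No model with a replicate block was fitted, because the labels give neither groups nor replicate numbers and the pairs rest on title position alone.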

Other observations

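The genes in this section were chosen after their values were seen, and libraries 7, 8 and 9 are set beside the 6 compared without a comparison. Several other genes called lower in libraries 4 to 6 encode surface proteins that bind secreted factors. Lrrc32, which holds latent TGF-beta at the cell surface, stood at 97.8, 59.6 and 60.2 CPM against 52.9, 32.5 and 27.1 CPM, and at 13.9, 11.5 and 6.72 CPM in libraries 7, 8 and 9. Eng, endoglin, a co-receptor of the TGF-beta family, stood at 119.6, 84.5 and 77.8 CPM against 65.1, 53.1 and 31.9 CPM, and at 19.0, 18.9 and 8.65 CPM in the last 3. Neither overlapped between libraries 1 to 3 and 4 to 6. Fzd8, a WNT receptor outside the WNT list, stood at 10.3, 9.20 and 5.90 CPM against 5.62, 4.29 and 2.80 CPM, also without overlap. Vsir, an immune checkpoint protein gene, stood at 25.1, 16.6 and 12.9 CPM against 12.9, 10.8 and 6.59 CPM, with library 4 just below library 3.

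Other genes called lower encode secreted proteins. Cpe, a carboxypeptidase of prohormones, stood at 498, 534 and 358 CPM against 319, 322 and 205 CPM. Tnfrsf11b, osteoprotegerin, the decoy receptor of RANKL, stood at 28.1, 24.0 and 20.8 CPM against 14.2, 14.4 and 7.51 CPM, and at 2.89, 5.31 and 1.65 CPM in libraries 7, 8 and 9. Hp, haptoglobin, an acute phase protein, stood at 15.9, 6.50 and 18.0 CPM against 6.11, 3.91 and 6.23 CPM. None of these 3 overlapped between the groups. Cxcl3, a chemokine outside the chemokine list, stood at 40.2, 13.8 and 18.9 CPM against 18.6, 7.47 and 7.93 CPM, with overlap. Cck, cholecystokinin, stood at 5.09, 0.688 and 2.17 CPM against 1.71, 0.209 and 0.577 CPM, and rested on 6 counts in library 5.

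Some genes called higher were at their lowest, not their highest, in libraries 2 and 5. Prkg2, a cyclic GMP-dependent kinase, stood at 101, 15.3 and 66.7 CPM against 174, 27.7 and 104 CPM, and Mbnl3, a splicing regulator, at 10.1, 3.70 and 11.5 CPM against 20.4, 9.70 and 18.0 CPM. Among genes whose groups did not overlap, Ago4, an Argonaute protein gene, stood at 2.24, 3.15 and 3.42 CPM against 4.50, 5.55 and 7.60 CPM, and Stab1, a scavenger receptor, at 1.62, 1.55 and 2.03 CPM against 2.76, 3.84 and 3.80 CPM. Rad54b, a recombination repair gene, stood at 2.06, 2.89 and 2.37 CPM against 4.30, 5.79 and 3.65 CPM, and differed from the mitotic genes in that library 2 lay below libraries 4 and 6.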
